A study of Mus musculus with 23 samples.

Results

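The comparison described here set thymic epithelial cells (TECs) with enforced Notch signaling against control TECs, both sorted as PLET1+ cells from the E14.5 mouse embryonic thymus. It holds 8 of the 23 libraries of the series, chosen by their labels: 5 NICD libraries and 3 control libraries. The NICD embryos carried *Foxn1*Cre and *Rosa26*FL-STOP-FL-NICD-IRES-EGFP. In these embryos Cre, driven by the TEC gene *Foxn1*, removes a stop cassette, so that the Notch intracellular domain (NICD) and enhanced green fluorescent protein are made from the *Rosa26* locus. The controls are labelled wild type and were littermate controls of the *Rbpj* conditional knockout (cKO) cross, a cross in which every embryo inherits at least 1 floxed *Rbpj* allele and some also *Foxn1*Cre. All are labelled C57BL/6. Each library was made from 100 sorted cells. For orientation, 3 PLET1+ control libraries of the earlier stage E12.5 are given beside some of the results. The question asked was how TECs respond when Notch is switched on from the onset of *Foxn1* expression.

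Notch receptors are cut after they bind a ligand on a neighbouring cell. The freed intracellular domain enters the nucleus, joins the DNA-binding protein RBPJ and the co-activator Mastermind, and switches on genes such as the HES and HEY repressors. NICD alone acts as a receptor that is always on. In many tissues HES1 represses proneural genes and Delta ligands, which is how neighbouring cells take different fates. In the thymus, the transcription factor FOXN1 drives TECs from a PLET1+ progenitor state into cortical TECs (cTECs), which support early thymocytes, and medullary TECs (mTECs), which display self antigens.

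Several features of the libraries moved with the genotype. The 5 NICD embryos came from 1 litter, 1 laboratory and 1 labelled batch, whereas the controls were bred and sorted elsewhere in 2 other batches, so genotype and batch cannot be told apart. NICD libraries held 63587152 to 92699969 counts and controls 28284253 to 48312976. Control replicate 1 stood apart from replicates 2 and 3: *mt-Cytb*, a mitochondrial gene, was at 40395 CPM (read counts scaled to the library total times its TMM factor) there and at 10104 and 10110.1 in the others, against 46157 to 88338 in NICD. Replicate 1 of each other E14.5 group of the *Rbpj* cross stood apart likewise. It was at 33881 to 75632 CPM of *mt-Cytb*, against 8041 to 9984 in replicates 2 and 3. Replicates 1 and 2 of that cross share a labelled batch, so the batch term does not cover this. At 20053241 counts each, 15183 to 16904 genes were detected in NICD, 16112 in control replicate 1, and 19578 and 18470 in replicates 2 and 3. Correlations of log2 CPM across 19140 genes were 0.806 to 0.824 among NICD libraries, 0.848 to 0.886 among controls and 0.785 to 0.827 between the groups (genes are not independent replicates).

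Both groups held the genes of TECs at high levels. The 8 TEC markers (*Foxn1*, *Epcam*, *Krt8*, *Krt18*, *Cdh1*, *Pax1*, *Pax9* and *Plet1*) summed to 5380.2 to 7671 CPM in NICD and 6651 to 7012 CPM in controls, with none at 0. The 14 thymocyte markers summed to 49.0 to 200.5 and 48.6 to 51.4 CPM, with *Rag1* and *Cd8a* at 0 in all 8 libraries and *Cd3e* and *Cd4* at 0 in the controls. The 12 mesenchyme markers were higher in NICD, at 45.7 to 451 CPM against 11.8 to 33.2, and were lowest in NICD replicate 3. Their part in the other results was not tested. The 9 endothelial markers summed to 0.148 to 21.3 and 0.145 to 2.98 CPM, the 9 erythroid markers to 0 to 0.934 and 0.946 to 1.03, and the 10 macrophage or dendritic markers to 0.0593 to 22.9 and 5.07 to 14.9. The 5 neural crest or glia markers summed to 14.8 to 94.0 and 5.31 to 11.97 CPM. The 4 parathyroid markers reached 400.3 CPM in control replicate 2 and at most 10.1 CPM in NICD. *Ddx3y*, a Y-linked gene, was above 50 CPM in NICD replicates 1, 2 and 5 and in control replicate 2, so the groups differed in their mix of sexes. In these libraries *Xist*, a gene expressed in females, was at 21.7, 7.31 and 1.15 CPM in NICD and 0.218 CPM in the control. The remaining NICD and E14.5 control libraries held 109 to 229 CPM of *Xist*. Whether a library held cells of both sexes was not tested.

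NICD and control TECs differed in a small set of called genes. Of 19140 genes tested, 131 (0.684%) passed an adjusted p of 0.05, by the quasi-likelihood test of edgeR with the Benjamini-Hochberg method. Among them 51 rose in NICD (0.266% of genes tested) and 80 fell (0.418%). The Notch target *Hes1*, the chaperones *Hspa1a*, *Hspa1b*, *Hsph1* and *Hsp90aa1*, the desmosomal gene *Dsp* and the basement membrane collagen gene *Col4a1* were among those that rose. *Hes6*, *Fosb*, *Lmo3*, *Xbp1*, *Psmb5* and *Lamp2* were among those that fell. When libraries were scaled to 3 housekeeping genes, 413 genes were called and 325 of them were higher in NICD, and the median log2 fold change of all genes went from 0.04 to 0.38. With limma-voom, the study's test, that median was −0.53, with 216 genes called higher and 782 lower, and a fit of the 8 libraries alone called 31 higher and 9 lower. Directions of gene lists are therefore given beside the median of all genes. An unadjusted p under 0.05 was reached by 3010 genes (15.7%). In bulk libraries, fewer cells of a type and less RNA per cell cannot be told apart.

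**Figure D1:**
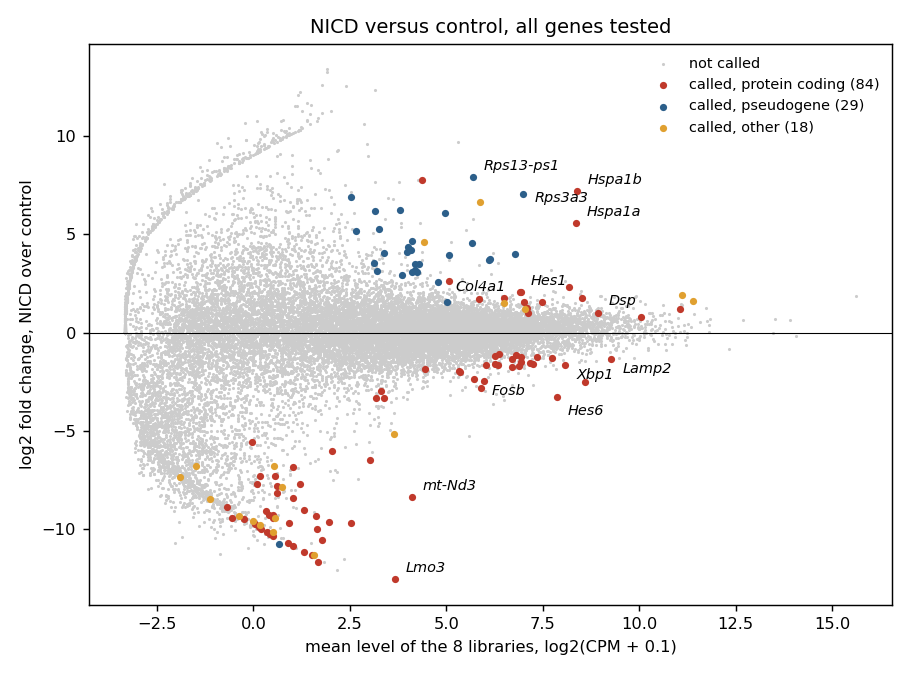
Log2 fold change of NICD over control (vertical axis) against the mean level of the 8 libraries as log2(CPM + 0.1) (horizontal axis), 1 point per gene tested. Grey points were not called, and coloured points are the 84 protein-coding genes, 29 pseudogenes and 18 other genes called at an adjusted p of 0.05.

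The modified genes were examined first. *Notch1*, whose intracellular domain the transgene encodes, stood at 87.0, 37.5, 35.5, 42.7 and 30.4 CPM in NICD replicates 1 to 5 and at 18.4, 16.7 and 18.2 CPM in the controls. All 5 NICD libraries lay above every other library of the series, yet the log2 fold change of 1.39 (SE 1.04) was not called (edgeR adjusted p = 0.578). The SE rests on all 23 libraries, among them replicate 1 of the E14.5 PLET1+ *Rbpj* cKO group with *Notch1* at 0 CPM. The part of that library in the missing call was not tested. Gene-level counts do not separate transgene from endogenous *Notch1* reads. *Gt(ROSA)26Sor*, the transcript of the *Rosa26* locus that carries the insertion, was at 58.0, 124, 100.3, 58.8 and 61.4 CPM in NICD and 241, 125.2 and 152 CPM in controls. The groups did not overlap, with a log2 fold change of −1.10 (SE 0.35, edgeR adjusted p = 0.145). *Foxn1*, the gene that drives Cre, was at 16.4, 44.6, 30.8, 76.6 and 38.1 CPM in NICD and 84.7, 206 and 142 CPM in controls, also without overlap (log2 fold change −1.83, SE 0.61, edgeR adjusted p = 0.162). Its NICD levels spanned those of the E12.5 controls, 37.3, 19.8 and 41.8 CPM. Within 10 Mb of *Gt(ROSA)26Sor*, 1 of 150 genes tested was called (*Lmcd1*, lower), and within 10 Mb of *Foxn1*, 2 of 373 (*Gm12338*, higher, and *Dusp14*, lower), beside 0.684% of all genes. The call of *Lmcd1* was lost without any 1 library, and that of *Gm12338* without any 1 library except NICD replicate 1.

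Among the Notch receptors and the proteins that process them, none of 17 genes tested was called, and their median log2 fold change was 0.10 beside 0.04 for all genes. With a term for replicate 1 of the *Rbpj* cross these medians were 0.84 and 0.09. *Notch2* was at 239.8, 749.8, 813, 862 and 805 CPM in NICD and 393, 111 and 108 CPM in controls. Control replicate 1, which stood apart from the other controls, lay above NICD replicate 1, so the groups overlapped (log2 fold change 1.84, SE 0.79, edgeR adjusted p = 0.263). *Adam10*, the protease that makes the first cut, had the same overlap, with 438 to 1008 CPM in NICD and 481, 208 and 216 CPM in controls (edgeR adjusted p = 0.274). *Notch3* ranged from 6.29 to 38.2 CPM in NICD and from 8.26 to 9.01 CPM in controls, and *Notch4* from 0.0126 to 10.3 and from 0 to 0.902 CPM. Of the Fringe glycosyltransferases, which tune the response of receptors to ligands, *Mfng* stayed at or under 0.124 CPM in NICD against 1.20 to 1.76 CPM in controls, *Rfng* ranged from 2.17 to 22.2 against 15.6 to 26.6 CPM, and *Lfng* was too low to be tested.

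The ligands lay on different sides of the controls. *Jag1*, the Jagged ligand most abundant here, was at 484, 736, 979, 761 and 776 CPM in NICD, 313, 136 and 221 CPM in controls and 815, 946 and 379 CPM at E12.5. All NICD libraries lay above the controls, within the range seen at E12.5 except for 1 library (log2 fold change 1.70, SE 0.66, edgeR adjusted p = 0.222). *Dll4*, the Delta ligand with which TECs instruct T cell fate, was at 6.33, 3.04, 1.31, 2.69 and 4.44 CPM in NICD against 19.2, 28.7 and 21.2 CPM in controls. Again the groups did not overlap, and the E12.5 controls were at 2.50, 9.06 and 3.54 CPM (NICD over E14.5 control −2.72, SE 0.70, edgeR adjusted p = 0.0847). *Dll1* had 0 counts in all 5 NICD libraries and 1.31, 1.56 and 1.401 CPM in controls, a level at least 33.8-fold lower in NICD when set at 3 counts per library (edgeR adjusted p = 0.113). *Jag2* was at 0.0138 to 7.79 CPM against 10.8 to 19.4 CPM. None of the 6 ligands tested was called, and 4 did not overlap between the groups (1 higher and 3 lower), beside 11.7% of all genes. Their median was −2.49, or −2.08 with genes at the floor of 3 counts set to their bound.

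Among 23 nuclear partners and modulators of Notch, none was called and the median was 0.15. *Rbpj* itself was at 10.9, 20.1, 5.27, 14.99 and 24.7 CPM in NICD and 20.4, 20.2 and 18.4 CPM in controls, with overlap. The genes of the co-activators *Maml2* and *Maml3* and of the co-repressor *Spen*, named after their values were seen, lay above the controls in every NICD library, at 114 to 184, 13.1 to 45.2 and 11.6 to 28.9 CPM against 59.4 to 109, 9.20 to 12.7 and 7.78 to 9.02 CPM. The histone deacetylase gene *Hdac1*, chosen the same way, lay below them at 51.7 to 83.8 against 119.8 to 285 CPM. Without overlap, 5 of the 23 lay above the controls and 1 below, beside 5.22% and 6.52% of all genes.

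*Hes1* was the 1 Notch target called among 16 tested. The gene (GRCm38 chr16:30064384-30067796), which encodes a repressor of proneural genes, was at 173, 207, 134, 214 and 108 CPM in NICD and 39.9, 33.3 and 49.6 CPM in controls, or 167 ± 46.0 (SD, n = 5) and 41.0 ± 8.22 (SD, n = 3). Every NICD library lay at more than 100 CPM and every control under 50. The log2 fold change was 2.04 (SE 0.37, adjusted p = 0.0145 in edgeR's quasi-likelihood test). Its call was lost when any 1 control library was left out. At E12.5 *Hes1* stood at 97.8, 70.4 and 232 CPM, and NICD was not called against that stage by the same test (log2 fold change 0.47, edgeR adjusted p = 0.536).

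The HEY repressors and *Sox9* lay on the same side without a call. *Heyl* was at 106, 133, 123, 83.4 and 77.4 CPM in NICD against 10.99, 29.8 and 25.9 CPM in controls, above all 18 other libraries (log2 fold change 2.24, SE 1.03, edgeR adjusted p = 0.295). This SE also rests on all 23 libraries, with *Heyl* at 0.0305 CPM in replicate 1 of the E14.5 PLET1+ *Rbpj* cKO group. The part of that library in the missing call was not tested. *Hey1* was narrow within both groups, at 288 to 339 against 178 to 210.4 CPM, and had a log2 fold change of 0.67 (SE 0.27, edgeR adjusted p = 0.242). Against E12.5, where it was at 43.9 to 156 CPM, *Hey1* was called higher in NICD (log2 fold change 1.64, edgeR adjusted p = 0.00323), as were 538 genes in either direction (2.81%). *Sox9*, a progenitor transcription factor and Notch target in several organs, was at 251, 380.2, 406, 326 and 363 CPM against 129, 102 and 138 CPM, above all other libraries of the series (log2 fold change 1.45, SE 0.38, edgeR adjusted p = 0.0896). *Hey2* overlapped, at 1.61 to 25.2 and 0.38 to 7.35 CPM, and *Nrarp*, a feedback inhibitor of Notch, was at most 1.27 CPM in NICD and 1.65 in controls. *Hes5* was not tested, with at most 0.711 CPM. Over the 16 targets the median was 0.30, and 4 did not overlap, all higher in NICD (5.22% of all genes were higher without overlap).

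The upstream sequence of *Hey2* is shown because it holds the RBPJ core GTGGGAA, searched on both strands and printed in capitals as it reads on the gene's strand. The 250 bases before the start (RefSeq, GRCm38.p6, chr10:30842784-30843033, minus strand) are given 5′ to 3′.
Hey2: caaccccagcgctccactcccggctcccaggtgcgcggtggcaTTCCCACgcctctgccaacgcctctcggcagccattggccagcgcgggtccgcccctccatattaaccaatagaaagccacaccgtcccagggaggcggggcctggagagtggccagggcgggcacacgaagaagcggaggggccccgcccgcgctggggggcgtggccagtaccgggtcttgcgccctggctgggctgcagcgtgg
This core was found upstream of 5.42% of 32851 promoters, counted by entry. It was found upstream of 3 of the 9 Notch target genes with an entry (*Hes5*, *Hes7* and *Hey2*), counted by gene with any matching entry. *Hes1*, *Heyl*, *Hey1* and *Sox9*, the targets that were higher in NICD without overlap, had no entry and were not searched.

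*Hes6* fell in NICD. HES6 is a HES family member that antagonises HES1 and favours neural differentiation. The gene (GRCm38 chr1:91411483-91414038) was at 63.6, 50.9, 27.3, 52.4 and 84.4 CPM in NICD and 599, 510.1 and 482 CPM in controls, a mean of 55.7 ± 20.8 (SD, n = 5) against 530.5 ± 60.9 (SD, n = 3). The NICD libraries lay several-fold under every control, and also under the E12.5 controls at 203, 239 and 228 CPM. The log2 fold change was −3.26 (SE 0.40, adjusted p = 0.000298 in edgeR's quasi-likelihood test) and the call held in all 22 alternatives. *Hes6* was the 1 gene called among 12 proneural and neuroendocrine genes tested, whose median was −2.67, or −1.99 with genes at the floor of 3 counts set to their bound. That median was −0.01 without control replicate 2 and 0.67 in a fit of the 8 libraries alone. *Sox4*, named after its values were seen, lay higher in every NICD library, at 22.1 to 29.8 against 5.79 to 10.6 CPM.

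**Figure D2:**
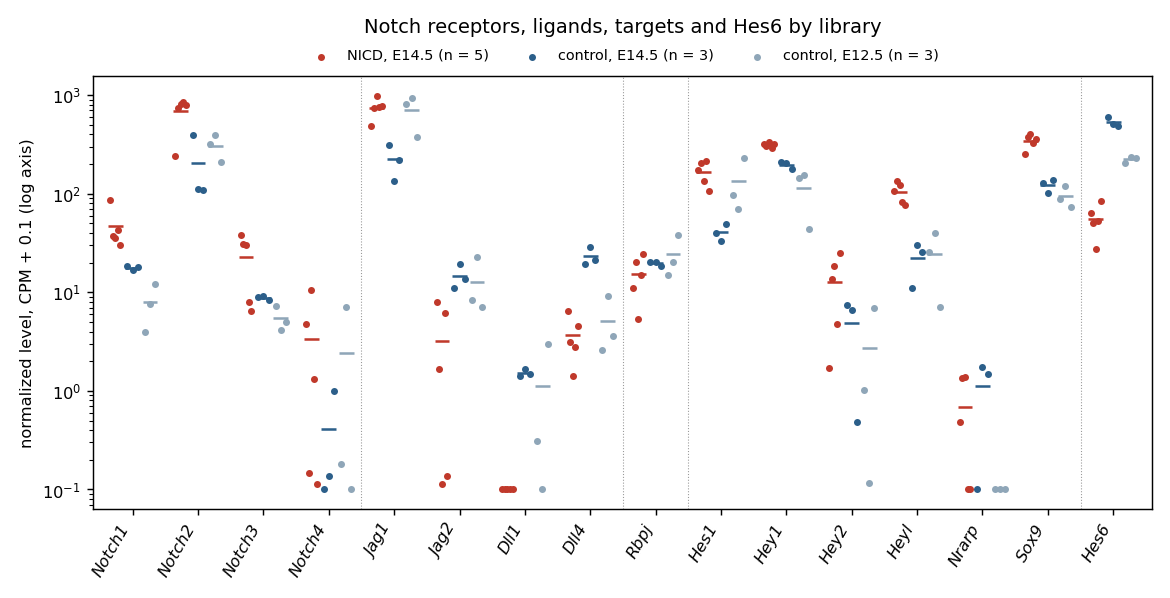
Level of Notch receptors, ligands, *Rbpj*, targets and *Hes6* in each library, as CPM + 0.1 on a log axis, for NICD (red), E14.5 control (dark blue) and E12.5 control (light blue); points are libraries and bars are group means. *Hes1*, *Heyl*, *Sox9* and *Jag1* are higher in every NICD library than in every E14.5 control, and *Dll4* and *Hes6* are lower.

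None of 16 cTEC genes was called, although several lay below the controls. Their median was −0.40 beside 0.04 for all genes, and 6 of them lay below every control without overlap (6.52% of all genes did). *Psmb11*, which encodes the thymus-specific proteasome subunit of cTECs, was at 99.8, 215, 121, 171 and 208 CPM in NICD and 404, 490.4 and 386 CPM in controls. The groups did not overlap, and the log2 fold change was −1.40 (SE 0.34, edgeR adjusted p = 0.0729). At E12.5 *Psmb11* was at 133, 87.8 and 72.9 CPM. *Ctsl* and *Prss16*, proteases of cTEC antigen processing, were at 1041 to 2549.9 and 399 to 626 CPM against 2948 to 3197 and 610.5 to 1208 CPM (edgeR adjusted p = 0.233 and 0.222), the latter with overlap. *Cxcl12* and *Ackr4*, a chemokine and a chemokine scavenger, were at 113 to 212 and 0.0305 to 4.58 CPM against 242 to 428 and 8.998 to 14.6 CPM. At E12.5 *Ctsl*, *Prss16*, *Cxcl12* and *Ackr4* were at 1368 to 2487, 209 to 461, 84.5 to 101 and 0 to 0.0186 CPM. *Ly75*, which encodes CD205, and *Ccl25*, a chemokine for thymus-seeding cells, overlapped, at 50.3 to 193 and 98.7 to 138 CPM and at 842 to 2099 and 1117 to 3409 CPM. *Tbata* was on the other side, at 227 to 1078 CPM against 61.6 to 424 CPM, with overlap.

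The upstream sequence of *Psmb11*, a direct target of FOXN1, is shown with the core GACGC recognised by FOXN1 in capitals, as it reads on the gene's strand (RefSeq, GRCm38.p6, chr14:54625060-54625309, plus strand).
Psmb11: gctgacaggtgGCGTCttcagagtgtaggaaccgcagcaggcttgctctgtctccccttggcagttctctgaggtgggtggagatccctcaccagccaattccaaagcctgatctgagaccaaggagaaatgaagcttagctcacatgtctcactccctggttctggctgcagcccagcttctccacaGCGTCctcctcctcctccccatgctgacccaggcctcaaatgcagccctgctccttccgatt
Both matches are on the opposite strand. The core occurred upstream of 22.6% of all promoters, counted by entry, and of 5 of 13 cTEC genes with an entry, counted by gene with any matching entry.

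The transcription factors that pattern the thymus had a median of 0.10 over 13 genes and no call. *Pax1* was at 295 to 350.5 CPM against 204 to 257 CPM (log2 fold change 0.47, SE 0.20, edgeR adjusted p = 0.257). *Pax9* was at 51.3 to 89.9 and 65.1 to 98.8 CPM, and *Trp63*, the regulator of stratified epithelia, at 122 to 449.6 and 182 to 254 CPM, both with overlap.

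None of 18 mTEC genes was called, with a median of 0.08. *Krt5*, a keratin of basal epithelia and mTECs, was at 1002, 1692, 1852, 1111 and 928 CPM in NICD and 291, 494 and 312 CPM in controls. All NICD libraries lay above all 18 other libraries, the E12.5 controls at 99.0, 43.4 and 44.3 CPM included (NICD over E14.5 control 1.86, SE 0.59, edgeR adjusted p = 0.145). *Krt14*, its usual partner keratin, overlapped, at 28.8 to 76.0 and 45.5 to 83.3 CPM. *Tnfrsf11a*, which encodes RANK, was at 13.6, 18.1, 30.4, 17.5 and 41.3 CPM and 15.1, 8.85 and 6.98 CPM, with overlap. Over 24 keratin genes tested, none was called and the median was 0.07.

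The 5 genes that the study used to mark early progenitors, chosen by it on these samples, gave no call and a median of 0.59 (0.17 with the replicate 1 term), which is no independent evidence of direction. *Plet1*, the gene of the sorted surface protein, was at 60.8, 17.5, 12.4, 40.0 and 33.0 CPM in NICD and 17.9, 24.1 and 23.1 CPM in controls. *Ccnd1* was at 6.74 to 31.3 against 2.54 to 6.72 CPM, *Cldn3* at 0 to 20.8 against 1.56 to 6.58 CPM, and *Cldn4* at 1.73 to 75.3 against 48.0 to 166 CPM. *Epcam*, which defined the sorted TECs, overlapped at 672 to 915 and 692 to 946 CPM. Of 11 genes of MHC class II presentation none was called. *H2-Aa* was at 153 to 284 CPM in NICD, 214 to 532 CPM in controls and 17.1 to 51.4 CPM at E12.5, and *Cd74*, the invariant chain, at 1087 to 2842, 999 to 3401 and 48.7 to 214 CPM. *Cd74* was called higher in NICD than at E12.5 (log2 fold change 4.08, edgeR adjusted p = 0.00116). Among 14 genes for signals from TECs to thymocyte progenitors none was called (median −0.05).

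**Figure D3:**
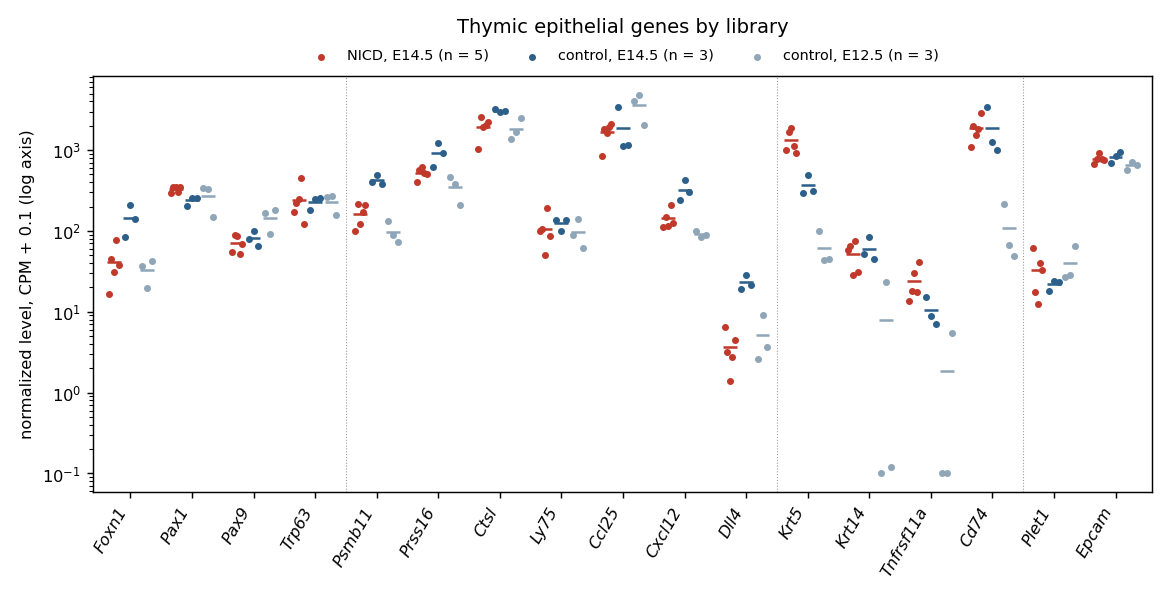
Level of thymic epithelial genes in each library, as CPM + 0.1 on a log axis, for NICD (red), E14.5 control (dark blue) and E12.5 control (light blue); points are libraries and bars are group means. *Foxn1*, *Psmb11* and *Dll4* of the NICD libraries lie below the E14.5 controls and near the E12.5 controls, whereas *Krt5* and *Cd74* lie far above the E12.5 controls.

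Epithelial adhesion and the basement membrane gave 1 called gene each. *Dsp*, which encodes desmoplakin of the desmosomes, was at 505, 686, 536, 670.4 and 616 CPM in NICD and 341, 293 and 267 CPM in controls. It rose by a log2 fold change of 1.01 (SE 0.16, adjusted p = 0.00692 in edgeR's quasi-likelihood test), a call lost without control replicate 2 or 3. The other 32 genes of tight junctions and adhesion tested were not called, and the list's median was 0.13. *Col4a1*, a collagen chain of basement membranes, was at 149, 235, 159, 209 and 107 CPM and 82.2, 55.7 and 43.1 CPM, and rose by 1.54 (SE 0.30, edgeR adjusted p = 0.0248). In NICD replicate 3, where mesenchyme markers summed to 45.7 CPM, *Col4a1* was the third highest of the NICD libraries. Its call was lost when any 1 control library was left out. Its partner *Col4a2* was at 55.0 to 104 and 25.4 to 87.4 CPM and was not called. Over 35 genes of laminins, integrins and basement membrane the median was 0.59. Mesenchymal *Col3a1* was at 92.8, 99.2, 0.138, 57.8 and 65.8 CPM in NICD and 0, 0.273 and 0 CPM in controls, without a call; the part of mesenchymal RNA in the collagen values was not tested.

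None of 36 cell cycle genes was called, and by the sign of the fold change 27 were lower and 9 higher in NICD. Without overlap, 7 lay below the controls and 3 above, beside 6.52% and 5.22% of all genes. *Cdk6*, which encodes a G1 kinase, was at 184, 234, 214, 256 and 208 CPM in NICD and 74.6, 65.8 and 64.4 CPM in controls, just outside the threshold (log2 fold change 1.68, SE 0.38, edgeR adjusted p = 0.0523). *Mki67*, a marker of cycling cells, also lay above the controls without overlap, at 203 to 313 against 125.3 to 201 CPM. *Cdk4*, *Ccnb1* and *Mcm5*, a G1 kinase, a mitotic cyclin and a replication factor, lay below them without overlap, at 462 to 629.9, 159 to 348 and 40.7 to 85.4 CPM against 704 to 896, 438 to 554 and 121 to 212 CPM. The list's median was −0.33. *Cdk6*, *Mki67*, *Cdk4*, *Ccnb1* and *Mcm5* were named after their values were seen. At E12.5 they were at 115 to 242, 146 to 287, 573 to 949, 178 to 429.5 and 39.5 to 87.5 CPM, each range overlapping that of NICD. None of 11 inhibitors of the cycle was called (median −0.03).

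None of 24 genes of the EGFR pathway, which relays growth signals in epithelia, was called (median −0.17). *Egfr* was at 77.5, 186, 46.2, 123 and 61.9 CPM in NICD and 47.1, 36.8 and 29.6 CPM in controls, with overlap in 1 library (log2 fold change 1.38, SE 0.43, edgeR adjusted p = 0.145). Its feedback inhibitor genes *Errfi1* and *Dusp6* were at 24.5 to 56.6 and 35.8 to 98.0 CPM against 64.1, 227 and 176 CPM and 90.1, 294 and 322 CPM (edgeR adjusted p = 0.0678 and 0.0512). In both genes control replicate 1 was nearest to the NICD libraries. *Spry1* and *Hbegf*, a feedback inhibitor and a ligand, were at 1.64 to 22.7 and 0 to 7.19 CPM against 21.6 to 60.8 and 13.1 to 35.3 CPM. *Errfi1*, *Dusp6*, *Spry1* and *Hbegf* were named after their values were seen. No gene was called among 43 of the Wnt pathway (median 0.38), 33 of BMP and TGF-beta (0.35), 15 of FGF (−0.26), 11 of Hedgehog (0.32) and 30 of TNF receptors and NF-kB (0.05).

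The immediate early genes, which respond fast to signals and to handling, had a median of −1.03 over 17 genes, or −0.99 with genes at the floor set to their bound, and 1 was called. *Fosb*, which encodes an AP-1 subunit, was at 29.9, 7.14, 22.9, 23.1 and 6.95 CPM in NICD and 124, 158 and 104 CPM in controls. It fell by 2.82 on the log2 scale (SE 0.40, edgeR adjusted p = 0.00173) and lay below all 18 other libraries, a call lost in a fit of the 8 libraries alone. *Fos*, *Egr1* and *Jun*, named after their values were seen, overlapped, at 595 to 1166, 559 to 887 and 124 to 382 CPM against 942 to 2707, 517 to 1164 and 51.9 to 245 CPM. Glycolysis and hypoxia genes had a median of −0.89 over 20 genes, with none called. For *Ldha*, which encodes lactate dehydrogenase, the NICD libraries were at 437 to 776 CPM and the controls at 662, 1972 and 1829 CPM, so that control replicate 1 fell among the NICD libraries. *Aldoa* and *Slc2a1* had the same order, at 395 to 881 and 2.81 to 39.1 CPM against 719, 1331 and 1244 CPM and 32.9, 104 and 75.7 CPM. *Pgk1* was on the other side without overlap, at 279.5 to 484 against 242 to 275 CPM. These 4 genes were named after their values were seen. In cholesterol synthesis, none of 21 genes was called (median 0.37).

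**Figure D4:**
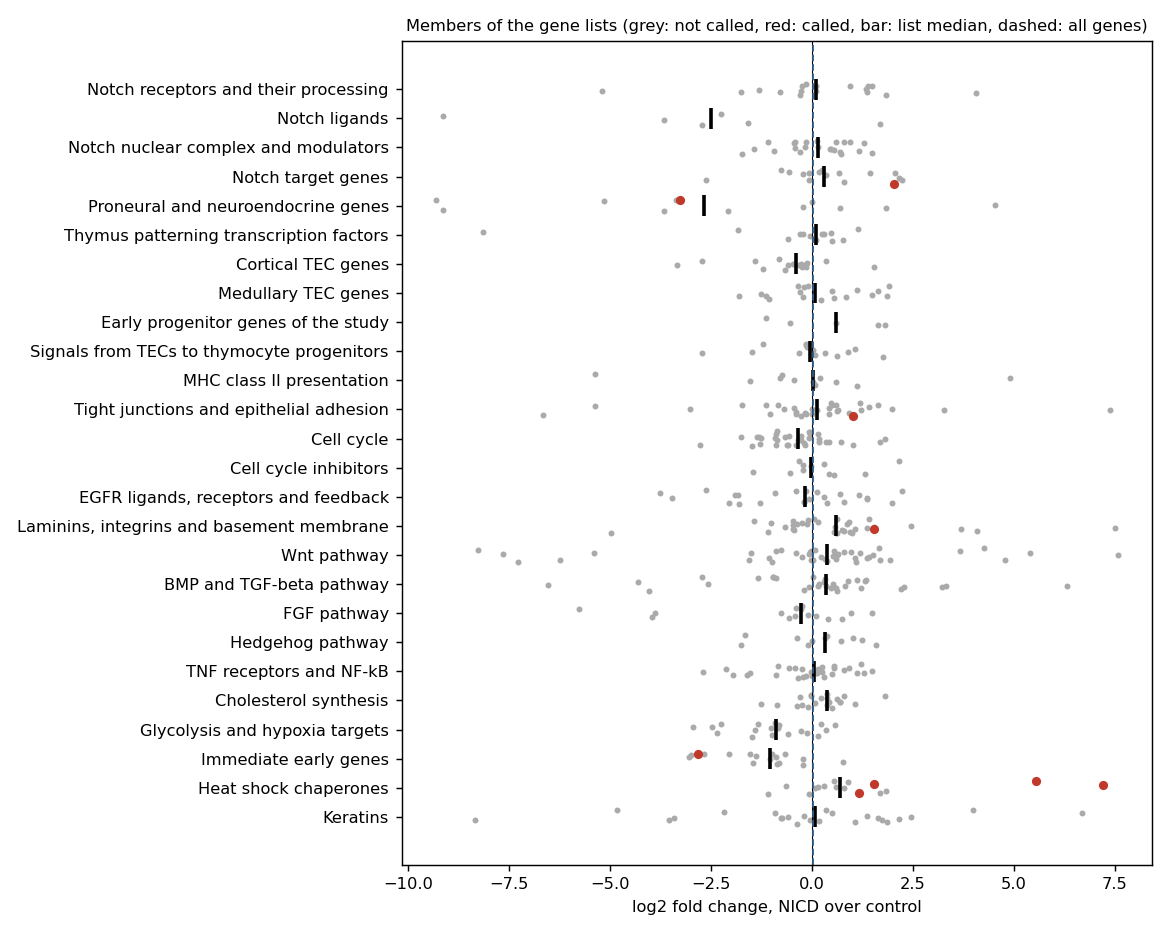
Log2 fold change of NICD over control for each tested member of the gene lists and of the keratin family. Grey points were not called, red points were called, black bars are list medians and the dashed line is the median of all genes, 0.04; called genes appear in 6 lists, 4 of them among the heat shock chaperones.

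Heat shock chaperones gave the most calls of the lists. Heat shock proteins refold damaged proteins, and their genes are switched on by the factor HSF1 in stressed cells. Of 16 genes tested 4 rose and none fell, beside 0.684% of all genes called, with a median of 0.71. Without overlap, 9 were higher in NICD, as were 5.22% of all genes. *Hspa1a* (GRCm38 chr17:34969190-34972156), which encodes an inducible HSP70, was at 521, 468, 693, 591 and 339.5 CPM in NICD and 6.44, 13.2 and 13.1 CPM in controls. Its neighbour *Hspa1b* was at 478, 477, 888, 612 and 206 CPM and 5.13, 3.09 and 2.75 CPM. Both stood far above all 18 other libraries, with log2 fold changes of 5.56 (SE 0.51, edgeR adjusted p = 8.01e-06) and 7.21 (SE 0.87, edgeR adjusted p = 0.000256). The 2 genes are near-identical copies and reads that map to both were not counted, so their separate levels are uncertain. *Hsph1* and *Hsp90aa1*, a nucleotide exchange factor and the inducible HSP90, rose by 1.54 (SE 0.27) and 1.18 (SE 0.22), with edgeR adjusted p = 0.0106 and 0.017. They were at 163 to 312 and 2116 to 3326 CPM in NICD, 59.98 to 110.3 and 1055 to 1334 CPM in controls, and 101 to 186 and 1890.5 to 2558 CPM at E12.5, so here the NICD libraries overlapped the earlier stage. Without control replicate 1 or 2 both calls were lost, and that of *Hsp90aa1* also without replicate 3. *Hspb1* and *Hspe1*, named after their values were seen, were at 66.9 to 189 and 642 to 1141 CPM against 25.5 to 41.5 and 404 to 528 CPM, not called. *Hsf1* itself was at 8.32 to 41.4 and 21.8 to 56.9 CPM. NICD embryos were sorted in another laboratory than the controls, and its part in these values cannot be told apart from that of the genotype.

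The upstream sequences of *Hspa1a*, *Hspb1* and *Hspe1* are shown because each holds the heat shock element core GAANNTTC, printed in capitals. They cover 250 bases before the start (RefSeq, GRCm38.p6), at chr17:34972157-34972406, minus strand, at chr5:135887669-135887918, plus strand and at chr1:55087898-55088147, plus strand.
Hspa1a: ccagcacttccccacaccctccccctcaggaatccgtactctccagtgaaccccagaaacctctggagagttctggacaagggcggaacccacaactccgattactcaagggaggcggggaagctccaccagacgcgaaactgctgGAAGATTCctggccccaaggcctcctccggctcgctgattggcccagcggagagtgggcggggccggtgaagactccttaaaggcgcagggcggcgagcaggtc
Hspb1: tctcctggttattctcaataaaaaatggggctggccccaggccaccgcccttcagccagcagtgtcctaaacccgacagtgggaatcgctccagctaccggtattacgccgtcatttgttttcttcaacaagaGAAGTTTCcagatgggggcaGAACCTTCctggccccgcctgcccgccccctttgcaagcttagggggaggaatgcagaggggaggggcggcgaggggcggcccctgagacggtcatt
Hspe1: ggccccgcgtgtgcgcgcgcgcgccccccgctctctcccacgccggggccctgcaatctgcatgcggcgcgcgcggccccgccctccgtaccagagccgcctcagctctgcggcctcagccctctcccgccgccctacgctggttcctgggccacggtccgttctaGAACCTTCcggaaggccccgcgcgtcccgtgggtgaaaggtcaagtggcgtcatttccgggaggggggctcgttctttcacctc
The core, which reads the same on both strands, occurred upstream of 6.69% of all promoters, counted by entry. It occurred upstream of 6 of 12 heat shock chaperones with an entry, counted by gene with any matching entry. The upstream sequences of *Hspa1a* and *Hspa1b* were identical at 247 of 250 positions.

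**Figure D5:**
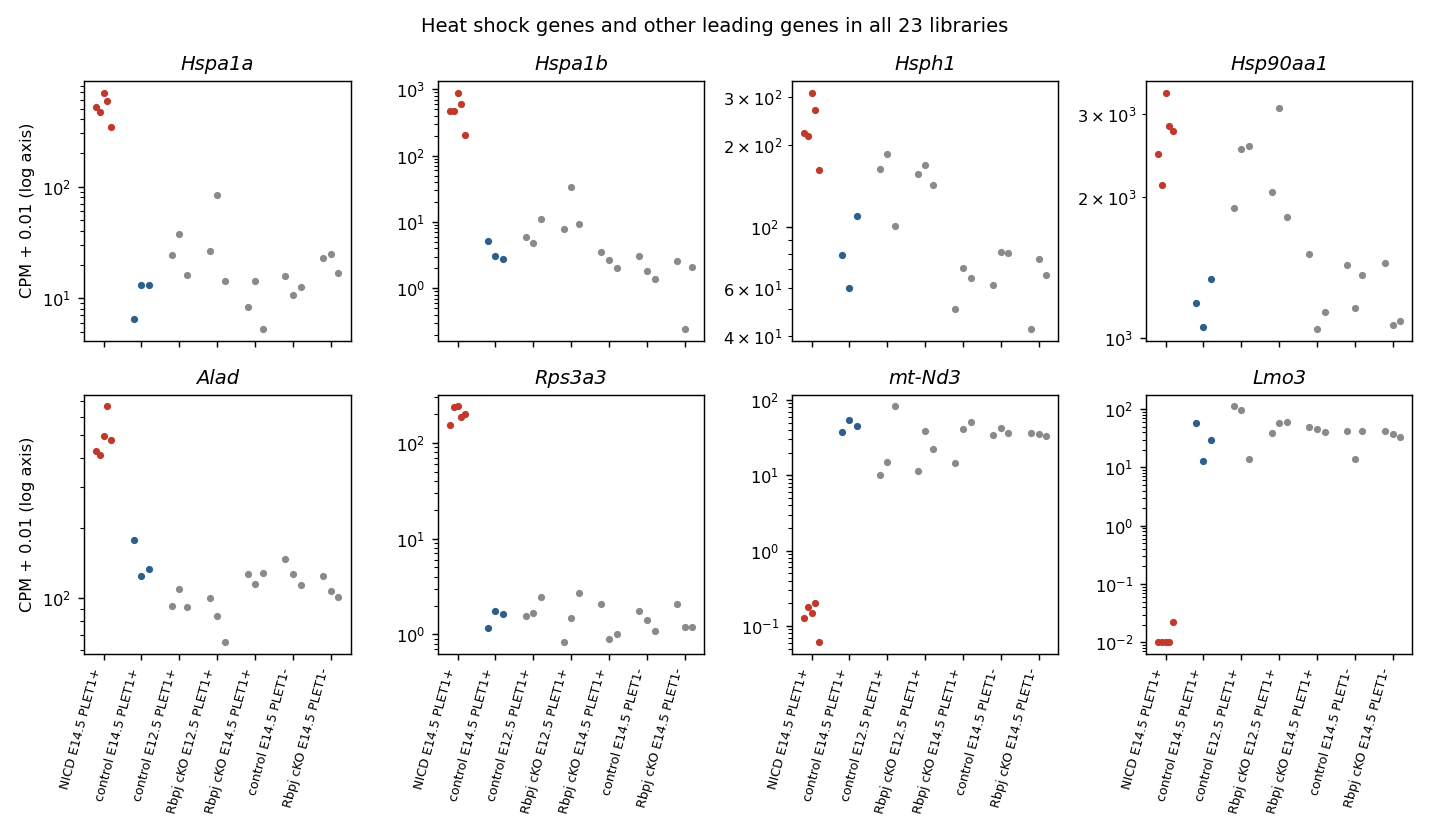
Level of 8 leading genes in all 23 libraries, as CPM + 0.01 on a log axis, with 1 column of points per group (NICD red, E14.5 PLET1+ control blue, other groups grey). *Hspa1a*, *Hspa1b*, *Alad* and *Rps3a3* are higher and *mt-Nd3* and *Lmo3* lower in NICD than in all 18 other libraries, while *Hsph1* and *Hsp90aa1* overlap the E12.5 groups.

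The other leading genes that rose included *Alad*, an enzyme of haem synthesis, at 427, 413, 498, 663 and 476 CPM in NICD and 177, 125.3 and 134 CPM in controls (log2 fold change 1.77, SE 0.21, edgeR adjusted p = 0.00021). *Stt3b*, a subunit of the oligosaccharyltransferase, was at 212 to 768 against 62.0 to 117 CPM. *Anp32a* was at 94.2 to 161 against 33.7 to 38.8 CPM, and *Igf2r*, a receptor that clears IGF2 and sorts lysosomal enzymes, at 124 to 216 against 29.4 to 64.5 CPM. *Alad*, *Stt3b* and *Anp32a* lay above all 18 other libraries, whereas *Igf2r* overlapped the E12.5 controls, at 66.8 to 132 CPM. The calls of *Stt3b*, *Anp32a* and *Igf2r* were lost without any 1 control library, and that of *Igf2r* also without NICD replicate 3 or 4. *Hist3h2ba*, a histone gene, was called higher by 2.63 on the log2 scale, a call lost with limma-voom, without any 1 control library and without NICD replicate 3 or 5.

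Of the genes that fell, some were well expressed in both groups. *Lamp2*, a lysosomal membrane protein, was at 301 to 558 CPM in NICD and 918 to 1139 CPM in controls (log2 fold change −1.35, SE 0.22, edgeR adjusted p = 0.00603). Its call was lost without control replicate 1. *Dctn1*, of the dynactin complex, was at 47.2 to 83.2 against 199.8 to 222 CPM, and its call was lost with housekeeping scaling or without control replicate 3. *Dusp14*, a phosphatase, was at 12.6 to 47.9 against 111 to 161 CPM and below all 18 other libraries, a call also lost without control replicate 3. Named after their values were seen, *Xbp1*, a factor of the unfolded protein response, was at 67.2 to 220.3 against 451 to 503 CPM, *Psmb5*, a catalytic subunit of the constitutive proteasome, at 56.9 to 114 against 253 to 272 CPM, and *Iigp1*, an interferon-induced GTPase, at 31.3 to 289.5 against 566 to 927 CPM. Their log2 fold changes were −1.64, −1.61 and −2.51 (edgeR adjusted p = 0.022, 0.0401 and 0.0285), and all 3 calls were lost with housekeeping scaling or without any 1 control library. At E12.5 *Lamp2*, *Dctn1*, *Xbp1* and *Iigp1* were at 328 to 622, 39.1 to 62.6, 121 to 127 and 57.4 to 74.2 CPM, overlapping the NICD libraries. *Dusp14* and *Psmb5* were at 98.8 to 159.9 and 153 to 319 CPM there, above every NICD library.

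Other called genes were all but silent in NICD. Of the 80 genes that fell, 52 averaged under 1 CPM in NICD, 38 had at most 3 counts in every NICD library and 22 had none. Of the 52, 38 averaged over 1 CPM in the E12.5 controls. *Lmo3*, a LIM-only transcriptional co-factor, had 58.0, 12.8 and 29.6 CPM in controls and 13.8 to 110.4 CPM at E12.5, and at most 0.0126 CPM in NICD. Set at the floor of 3 counts per library, it was at least 795-fold lower than in controls (edgeR adjusted p = 4.15e-07). *Ispd*, *Ankmy1*, *Itgb2*, *Gm4951*, *Klf2* and *Tctex1d1* had at most 3 counts in every NICD library, and were at least 211-, 152-, 189-, 356-, 65.9- and 33.3-fold lower. Of these, *Ispd*, *Ankmy1*, *Klf2* and *Tctex1d1* were also below all 18 other libraries. For *Ankmy1* and *Klf2* the lowest of those libraries, at 0.0340 and 0.0491 CPM, were at or under the floor of 3 counts, so that difference is within counting error. Among genes with 0 counts in all NICD libraries, *Gbp6*, *2610028E06Rik* and *4930550C14Rik* had the highest control means, at 4.001, 17.1 and 3.61 CPM, 12.7, 5.99 and 4.04 CPM and 16.2, 2.71 and 3.42 CPM. The call of *Gbp6* was lost without any 1 control library or any of NICD replicates 2 to 5, and that of *4930550C14Rik* without any 1 control library or NICD replicate 3 or 4. At E12.5 *Gm4951* and *Gbp6* were at 0 CPM in every control, and *2610028E06Rik* at most at 0.147 CPM. The highest E12.5 controls of *Ispd*, *Ankmy1*, *Itgb2*, *Klf2*, *Tctex1d1* and *4930550C14Rik* were at 18.7, 2.97, 8.39, 2.45, 13.2 and 5.12 CPM. At equal depth NICD libraries held fewer detected genes than control replicates 2 and 3, and the part of this in the silent genes was not tested.

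Some of the called genes had NICD levels outside the range of the other 18 libraries. This held for 64 of the 131 called genes (37 higher and 27 lower) and for 1.36% of all genes tested. The 2 shares cannot be compared, because genes were called on NICD against controls that are among the 18 libraries. Of the called genes, 129 did not overlap between NICD and those controls. Pseudogenes supplied 29 calls of 1627 tested, 28 of them higher, or 1.78% of pseudogenes called beside 0.684% of all genes. *Rps3a3*, *Rps13-ps1* and *Gm8730*, processed pseudogenes named after their values were seen, were at 154 to 239.5, 70.4 to 91.3 and 94.2 to 133 CPM in NICD and 1.16 to 1.76, 0.145 to 0.498 and 7.48 to 8.51 CPM in controls. Reads shared with the parent genes make the levels of such copies uncertain. Of the 79 genes for ribosomal proteins themselves none was called, with a median of 0.29, and 27 lay above the controls without overlap, as did 5.22% of all genes. Pseudogenes took 0.479% to 0.523% of counts in NICD and 0.394% to 0.402% in controls. In the mitochondrial genome, *mt-Nd3*, a subunit gene of respiratory complex I, was at 0.0504 to 0.191 CPM in NICD against 37.6, 53.6 and 44.8 CPM in controls, and the lowest of the 18 other libraries had 9.94 CPM (log2 fold change −8.39, SE 0.67, edgeR adjusted p = 1.43e-06). By contrast *mt-Rnr1*, the small mitochondrial ribosomal RNA, rose, at 2257 to 3828 against 494 to 1167 CPM (edgeR adjusted p = 0.00399), a call lost without control replicate 3, without batch terms and in a fit of the 8 libraries alone. Of 33 mitochondrial genes tested, *mt-Rnr1* rose and *mt-Nd3* and *mt-Tg*, a glycine transfer RNA called in 15 of 21 alternatives, fell.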

How the data were processed

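RNA of 100 sorted PLET1+ cells per library was made into Smart-seq2 libraries and sequenced on a HiSeq4000 as 75 bp paired ends. Per the labels' processing notes the authors used bcl2fastq, Trimmomatic 0.32, STAR 2.5.1a and featureCounts against GRCm38.p5. The deposited values are raw fragment counts per gene. Fragments that mapped to several places or genes were not counted, and no strand setting was used, so near-identical copies, overlapping genes and antisense genes are uncertain. Names came from GENCODE (98.6% of the 50123 genes).

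All 23 libraries were fitted together with edgeR 4.0.16 in R 4.3.3 by the quasi-likelihood test, two-sided, with TMM factors, filterByExpr (19140 genes), 7 group means and 2 terms for labelled batch within groups. Calls were made at a Benjamini-Hochberg adjusted p of 0.05. Each SE of a log2 fold change is the size of that change divided by the square root of the test's F statistic. It therefore restates the test and is no separate measure of spread. Library totals of the 8 libraries compared ranged from 28284253 to 92699969. CPM are library-scaled with these factors. The floor was 3 counts per library, which covers counting error only. The NICD libraries are littermates. The p-values rest on the spread between libraries within all 7 groups, PLET1-negative libraries of the E14.5 *Rbpj* cross included. By *Ddx3y*, same-numbered PLET1+ and PLET1-negative libraries of the same genotype matched in sex and may share embryos, but were fitted as independent libraries. Same-numbered NICD and control libraries come from different litters and are not paired. Alternatives used DESeq2 1.42.0, limma-voom (limma 3.58.1), other scalings, filters, depths and sample sets.

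The members and gene lists were chosen with earlier results of these data known. Named genes were those of core roles, called list members, the 12 protein-coding genes of lowest adjusted p on either side whose groups did not overlap, the 3 highest genes with 0 counts in a group, and sex genes. Others, *Adam10*, *Sox9*, *Cxcl12*, *Ackr4*, *Tbata*, *Col4a2*, *Col3a1*, *Hsf1*, *mt-Cytb*, *mt-Rnr1*, *mt-Tg*, *Lmcd1* and *Gm12338* among them, were chosen after their values were seen. The fits were tested on simulated data. Some items are not reported here.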

Additional observations from a re-analysis of the deposited data

Results flagged for a closer look

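Of 100 named genes examined, 10 had 1 NICD library far from the other 4. For normally distributed values chance gives this in about 1 in 20 groups, a rate that need not hold for low or skewed levels. In NICD replicate 1, *Notch1* was highest at 86.96 CPM (next 42.73), *Notch2* lowest at 239.8 CPM (next 749.8) and *Ackr4* highest at 4.579 CPM (next 1.097). In replicate 3, *Ccnd1* was highest at 31.29 CPM (next 13.56). In replicate 5, *Col4a2* was lowest at 54.98 CPM (next 98.31), and *Dusp14* and *Hbegf* were highest at 47.93 and 7.188 CPM (next 21.25 and 0.1334). *Lmo3* in replicate 5, *Itgb2* in replicate 2 and *Ispd* in replicate 1 were the single libraries above 0, at 0.01261, 0.0458 and 0.01482 CPM, which is at most 3 counts each; with the other 4 libraries at 0, any count stands apart, so nothing is read from these.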

How the results depend on the processing

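The number of genes called between NICD and control, 131, depended on the test. DESeq2 called 1236 genes and limma-voom, the study's test, 998. Housekeeping scaling gave 413, no filter on low counts 677, all 6 E14.5 controls (PLET1+ and PLET1-negative) 682, and only the libraries of both groups 40. A term for replicate 1 of the *Rbpj* cross, chosen after seeing the data, gave 510. With the replicate number as a block over all 23 libraries the count was 79, although the numbers do not pair NICD with control libraries. Deviations from group means of NICD and control libraries that share a number had correlations of −0.191, −0.0427 and −0.0582 over 6544 genes. Within the E14.5 *Rbpj* cross, libraries numbered 1 did share high *mt-Cytb*. Leaving out 1 library gave 31 to 172 genes, with 42, 34 and 31 without control replicates 1, 2 and 3 and 80 without NICD replicate 3. Against E12.5, where 538 genes were called, DESeq2 gave 2285, limma-voom 1500, no filter 1129, both groups alone 248, the replicate 1 term 845, and leaving out 1 library 316 to 561. The causes were not tested. The fit of both groups alone also ended the calls of *Col4a1*, *Dsp*, *Dusp14*, *Hsph1*, *Stt3b*, *Igf2r*, *Lamp2*, *Iigp1*, *Xbp1*, *Ankmy1*, *Gm4951*, *Itgb2*, *Klf2*, *Tctex1d1*, *Gbp6*, *2610028E06Rik*, *4930550C14Rik*, *Hist3h2ba*, *Lmcd1* and *Gm12338*, and the replicate block those of *Anp32a*, *Dsp*, *Hsp90aa1*, *Igf2r*, *Psmb5*, *Xbp1*, *Itgb2*, *Gbp6*, *2610028E06Rik*, *4930550C14Rik*, *Hist3h2ba*, *Lmcd1*, *Gm12338* and *mt-Rnr1*. Across alternatives the named genes gave 1876 values with the same direction and call, 121 that lost a call and 111 that gained one. The gained calls are not listed gene by gene, and a gene given as not called was not called in the main fit. Of the list medians, 636 stayed within the spread and 2 did not: early progenitor genes with all 6 controls (1.94) and ribosomal proteins with housekeeping scaling (0.67). For 11 genes (among them *Nrarp*, *Ly75*, *Cldn3*, *Ccl25*, *Krt14*, *Pax9*, *Trp63*, *Epcam*, *Egr1* and *Cd74*) and the sex genes, levels alone are given because an uncalled fold change against the E14.5 controls changed sign under at least 1 alternative. Depth limits genes at or under 3 counts.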
